A study of Mus musculus with 6 samples.

Results

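The 9 genes described here encode enzymes that make the precursors of DNA and RNA. They were chosen by name from the deposited gene table, which lists 18908 genes, and each of the 9 has a row. Rrm1, Rrm2, Tyms, Dut and Tk1 act on deoxyribonucleotides, Ppat and Paics build the purine ring, and Cad and Umps build the pyrimidine ring. Messenger RNA was sequenced in 6 mouse libraries whose labels describe bone marrow-derived macrophages, cultured cells grown from marrow precursors. Of these, 3 carry the label of an shRNA against VprBP with the genotype VprBP1 Knockdown, and 3 carry the label of a control shRNA with the genotype WT. A short hairpin RNA is processed in the cell into a guide against its target transcript, and the gene for VprBP is listed as Dcaf1, whose protein brings substrates to a cullin ubiquitin ligase. The sources used here do not give the hairpin sequences, the mouse strain or age, any treatment, or whether libraries of 1 label are separate animals or cultures. The p-values therefore describe the spread among the libraries alone, part or all of which may be technical.

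Cells obtain nucleotides by building them from small molecules and by salvaging bases and nucleosides. Ribonucleotides feed RNA synthesis, energy metabolism and sugar and lipid activation in all cells. Ribonucleotide reductase turns ribonucleotides into deoxyribonucleotides for DNA synthesis, and several genes of this branch are transcribed mainly around S phase.

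Total counts ranged from 17825340 to 18407356 in the VprBP-labelled libraries and from 16839445 to 21838875 in the control-labelled libraries. Dcaf1, the targeted gene, stood at 36.0, 34.6 and 36.8 CPM across the VprBP-labelled libraries, against 42.2, 43.5 and 40.7 CPM across the control-labelled libraries, or 84.9% of the control-labelled mean (edgeR adjusted p = 0.00625, and two-sided exact permutation p = 0.1, the smallest that 3 against 3 allow). Here CPM is counts per 1000000 counts after TMM scaling, which corrects for differences in RNA composition between libraries, and with library size only the Dcaf1 difference was not called (log2 -0.12, adjusted p = 0.137). Of 12 macrophage markers, 8, among them Csf1r, Adgre1 and Itgam, have no row, and the other 4 summed to 16.5 to 18.2 CPM in the VprBP-labelled and 37.1 to 40.2 CPM across the control-labelled libraries. That gap is Cd68 (0.701 to 1.19 CPM in the VprBP-labelled and 30.4 to 32.8 CPM in the control-labelled set), whereas Lyz2 and Mertk were called higher and Cd14 was not called. The 8 pigment cell markers, a list taken from an earlier look at these data, summed to 19654 to 20163 and 21075 to 21454 CPM, with 5 called higher and 3 lower. The labelled cell type was therefore not borne out by its markers, and the groups are named by label only. Of 4 fibroblast markers, 3 have a row, with sums of 327 to 376 CPM in the VprBP-labelled and 27.2 to 29.0 CPM across the control-labelled libraries. Col1a1 makes up most of that sum (302 ± 28.1 and 14.9 ± 1.07 CPM), Pdgfra was also higher, and Dcn was lower (1.26 ± 0.365 and 2.70 ± 0.297 CPM, log2 difference -1.10, adjusted p = 0.00855). Mitochondrially encoded genes took 4.89% to 5.56% of the counts in the VprBP-labelled and 8.65% to 9.48% in the control-labelled libraries.

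All 9 genes passed the filter on low counts and all 9 differed between the labels, 7 being higher and 2 lower under the VprBP label (edgeR quasi-likelihood test, Benjamini-Hochberg adjusted p below 0.05 over 14641 genes). The background is high: 75.0% of all tested genes were called, 37.9% higher and 37.0% lower, so that being called sets none of these 9 apart. The 3 values of a label did not overlap those of the other for any of the 9, as for 77.2% of all tested genes. The median log2 difference over the 9 was 1.46, against -0.012 over all tested genes, whose middle 50% lay between -0.64 and 0.75. In bulk RNA, fewer cells of a type and less RNA per cell cannot be told apart.

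**Figure D1:**
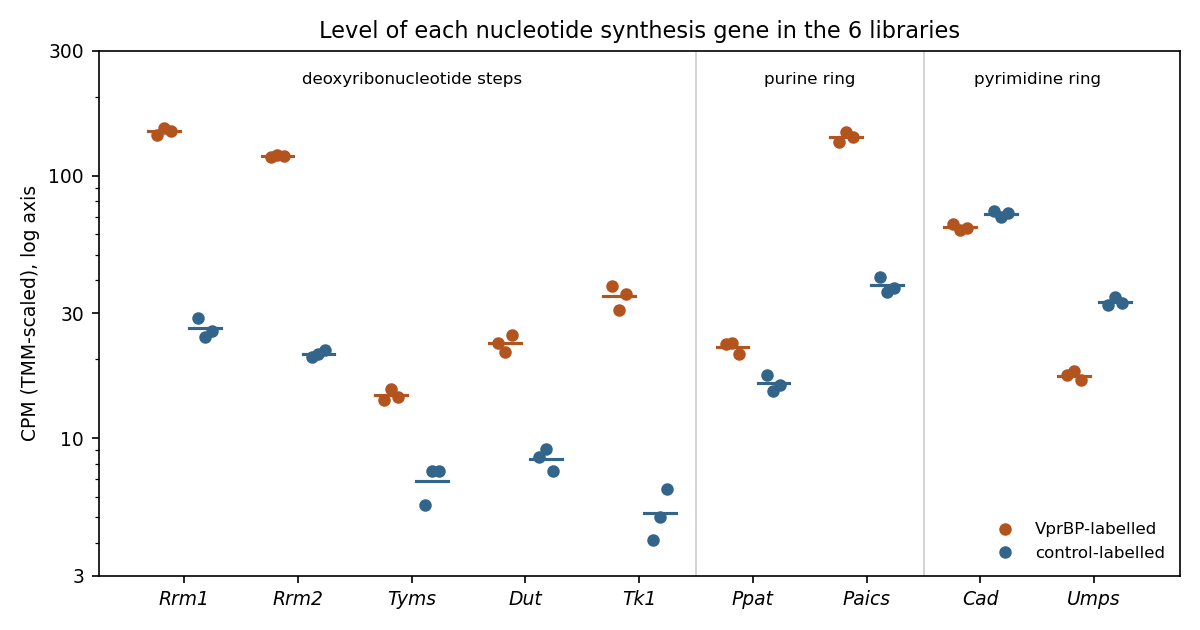
Level of each gene in CPM after TMM scaling, on a log axis, in the 3 VprBP-labelled libraries (left of each pair) and the 3 control-labelled libraries (right); points are libraries and bars are means. The 5 deoxyribonucleotide genes, Ppat and Paics lie higher in the VprBP-labelled libraries, and Cad and Umps lie lower.

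**Figure D2:**
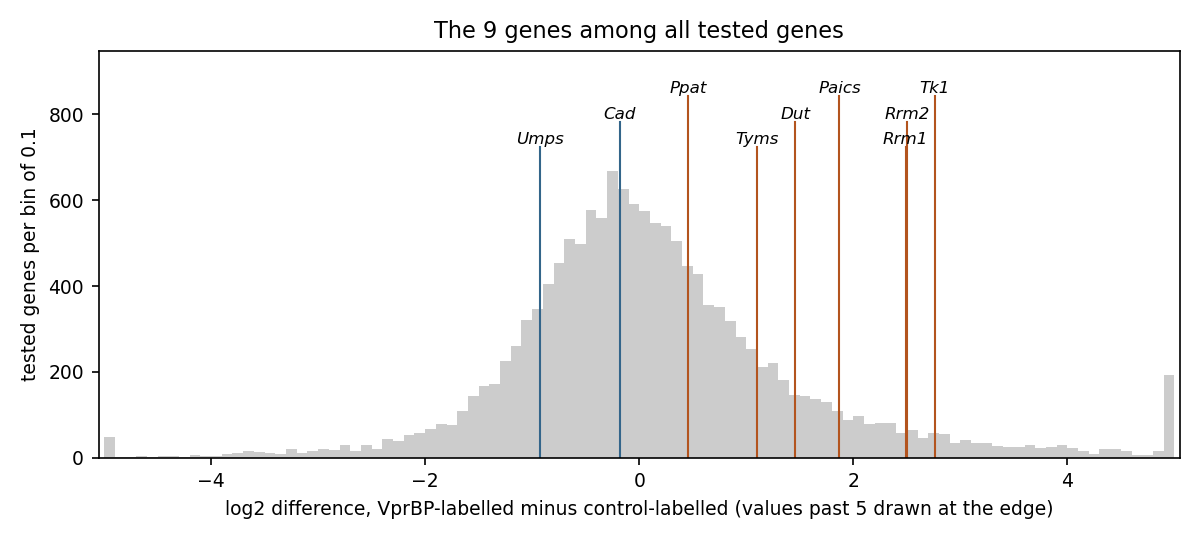
Number of tested genes in bins of 0.1 of the log2 difference (VprBP-labelled minus control-labelled, grey), with a line at the value of each of the 9 genes. Tk1, Rrm1 and Rrm2 lie in the right tail, at 2.76, 2.49 and 2.50, whereas Cad lies near the centre at -0.18.

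The subunits of ribonucleotide reductase were both more than 5-fold higher in the VprBP-labelled libraries. Rrm1, the large subunit that holds the catalytic and regulatory sites (ENSMUSG00000030978.10, GRCm38 chromosome 7, 102441695 to 102469771, plus strand), stood at 143, 153 and 148 CPM across the VprBP-labelled libraries, against 28.8, 24.4 and 25.6 CPM across the control-labelled libraries. The lowest VprBP-labelled value was 4.96 times the highest control-labelled one. Its log2 difference was 2.49 (SE 0.07, adjusted p = 4.68e-16), a 5.62-fold rise with a 95% interval of 5.10 to 6.19. Rrm2, the small subunit that carries the tyrosyl radical and is made in dividing cells (ENSMUSG00000020649.11, chromosome 12, 24708241 to 24714146, plus strand), stood at 118, 120.5 and 119.6 CPM across the VprBP-labelled libraries, against 20.5, 21.0 and 21.7 CPM across the control-labelled libraries. Within each label the 3 libraries were close, with SDs of 1.52 and 0.596 CPM. The rise was 5.67-fold (5.18 to 6.21, log2 difference 2.50, SE 0.06, adjusted p = 1.7e-16). Of all tested genes, 6.07% had a higher log2 difference than Rrm1 and 6.02% than Rrm2. The alternative small subunit Rrm2b, a p53 target that serves cells outside S phase, went the other way, at 32.9, 34.3 and 34.9 CPM across the VprBP-labelled libraries, against 43.7, 43.1 and 40.9 CPM across the control-labelled libraries (log2 difference -0.32, SE 0.07, adjusted p = 0.00057).

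The stretches just upstream of Rrm1 and Rrm2 are shown because these genes encode partners in 1 enzyme and differed by nearly the same factor. They come from RefSeq promoters on GRCm38.p6, are written 5′ to 3′ on the gene's strand up to the base before the earliest annotated exon, and carry in capitals each match to CCAAT or GGGCGG on either strand.
Rrm1, chr7:102441445-102441694, plus strand: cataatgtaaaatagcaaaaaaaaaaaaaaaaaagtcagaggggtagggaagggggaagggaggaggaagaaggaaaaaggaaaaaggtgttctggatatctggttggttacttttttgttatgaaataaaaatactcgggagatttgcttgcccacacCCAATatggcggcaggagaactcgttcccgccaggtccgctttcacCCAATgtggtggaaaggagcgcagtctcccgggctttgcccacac
Rrm2, chr12:24708004-24708240, plus strand: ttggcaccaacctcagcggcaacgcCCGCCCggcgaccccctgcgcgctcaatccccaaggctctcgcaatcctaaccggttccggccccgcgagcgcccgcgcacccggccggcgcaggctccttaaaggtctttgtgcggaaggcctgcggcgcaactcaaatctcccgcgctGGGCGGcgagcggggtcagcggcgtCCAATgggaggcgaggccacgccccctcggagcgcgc
The Rrm1 stretch holds CCAAT at both 91 and 45 bases before the start and no GGGCGG. In Rrm2, CCAAT begins 50 bases before the RefSeq start, and GGGCGG lies on the plus strand 75 bases and on the minus strand 225 bases before it.

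Genes of thymidylate supply were also higher in the VprBP-labelled libraries, by differing amounts. Tk1, the cytosolic thymidine kinase that salvages thymidine in S phase (ENSMUSG00000025574.13, chromosome 11, 117815526 to 117826092, minus strand), stood at 38.2, 30.8 and 35.4 CPM across the VprBP-labelled libraries, against 4.12, 5.02 and 6.39 CPM across the control-labelled libraries. It had the highest fold of the 9 genes, 6.79 (5.53 to 8.33, log2 difference 2.76, SE 0.14, adjusted p = 3.54e-12), resting on 81 to 107 counts per control-labelled library. Its 5′ end overlaps that of Afmid on the other strand over 169 bases, 83 of them in exons of both, and without a stated strand setting reads there cannot be told apart. Afmid was itself higher, at 25.7 ± 0.731 CPM in the VprBP-labelled and 8.75 ± 1.21 CPM across the control-labelled libraries (SD, n = 3 each), and its part in the Tk1 values was not tested.

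Dut, which hydrolyses dUTP and so yields the substrate of thymidylate synthase (ENSMUSG00000027203.15, chromosome 2, 125247190 to 125258608, plus strand), stood at 23.0, 21.3 and 24.8 CPM across the VprBP-labelled libraries, against 8.52, 9.11 and 7.52 CPM across the control-labelled libraries. The groups stood well apart, with a 2.75-fold rise (2.31 to 3.27, log2 difference 1.46, SE 0.12, adjusted p = 3.18e-09). Tyms, thymidylate synthase itself (ENSMUSG00000025747.12, chromosome 5, 30058202 to 30073617, minus strand), had the lowest rise of these 5 genes. It stood at 14.0, 15.4 and 14.4 CPM across the VprBP-labelled libraries, against 5.60, 7.50 and 7.52 CPM across the control-labelled libraries, where replicate 1 was lower than the other 2. Its fold was 2.14 (1.73 to 2.65, log2 difference 1.10, SE 0.15, adjusted p = 2.18e-06), and 18.2% of tested genes had a higher difference. The annotation holds a processed pseudogene, Tyms-ps, which has no row in the table.

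Markers of cycling cells moved with these 5 genes. All 8 of the list (Mki67, Top2a, Cdk1, Ccnb1, Ccna2, Mcm2, Mcm5 and Pcna) were called higher, with a median log2 difference of 3.01. Their summed level was 1044 to 1085 CPM across the VprBP-labelled libraries, against 180.1 to 182 CPM across the control-labelled libraries. The part of this shift in the values of the 9 genes was not tested.

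Both purine ring genes of the 9 were higher in the VprBP-labelled libraries, by unequal amounts. Ppat, the amidotransferase of the committed step (ENSMUSG00000029246.14, chromosome 5, 76913249 to 76951578, minus strand), stood at 22.8, 23.1 and 21.0 CPM across the VprBP-labelled libraries, against 17.4, 15.2 and 16.0 CPM across the control-labelled libraries. This was a modest difference, 1.37-fold (1.19 to 1.59, log2 difference 0.46, SE 0.10, adjusted p = 0.0005), and 64.2% of tested genes changed by more in either direction. Paics, a bifunctional enzyme of later ring steps (ENSMUSG00000029247.17, chromosome 5, 76951307 to 76967509, plus strand), stood at 135, 147 and 140.2 CPM across the VprBP-labelled libraries, against 41.1, 36.2 and 37.5 CPM across the control-labelled libraries. Its rise was 3.67-fold (3.35 to 4.01, log2 difference 1.87, SE 0.06, adjusted p = 8.61e-15). These genes lie head to head and overlap by 272 bases (chromosome 5, 76951307 to 76951578), all of them in exons of both, so reads from there cannot be assigned without strand. How far such reads moved either value was not tested.

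The pyrimidine ring genes were the 2 of the 9 that were lower in the VprBP-labelled libraries. Umps, which completes UMP from orotate (ENSMUSG00000022814.6, chromosome 16, 33954782 to 33967038, minus strand), stood at 17.4, 18.0 and 16.7 CPM across the VprBP-labelled libraries, against 32.2, 34.6 and 32.8 CPM across the control-labelled libraries. Its VprBP-labelled level was 0.524 times the control-labelled one (0.461 to 0.595, log2 difference -0.93, SE 0.09, adjusted p = 2.07e-08), and 83.7% of tested genes had a higher difference. An antisense gene, Gm15829, shares 213 exonic bases with Umps and has no row. Without a stated strand setting, any reads from the shared bases cannot be assigned, and their part in the Umps values was not tested. Cad, the multifunctional enzyme that opens the pathway (ENSMUSG00000013629.16, chromosome 5, 31054780 to 31078479, plus strand), stood at 65.5, 62.5 and 63.1 CPM across the VprBP-labelled libraries, against 73.6, 69.9 and 72.2 CPM across the control-labelled libraries. Although the groups did not overlap, the gap was narrow, the lowest control-labelled value being 1.07 times the highest VprBP-labelled one. The level was 0.886 times that of the control-labelled libraries (0.814 to 0.964, log2 difference -0.18, SE 0.06, adjusted p = 0.0111), and 86.1% of tested genes changed by more. With scaling by library size only, which moves the median of all tested genes by 0.12, the Cad difference was -0.06 and was not called (adjusted p = 0.362). Dhodh, the mitochondrial enzyme between them, was not called, at 12.6, 11.5 and 12.8 CPM across the VprBP-labelled libraries, against 13.2, 16.4 and 14.1 CPM across the control-labelled libraries (log2 difference -0.24, SE 0.12, adjusted p = 0.093). Without control-labelled replicate 1 it was called, at -0.31 (adjusted p = 0.0457).

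Promoter letters were compared over the 250 bases before each RefSeq start, on both strands, in the 9 genes and in all 32851 promoters of the table. GGGCGG, the letters of an Sp1 site, occurred in 8 of the 9, Rrm1 being the exception, and in 32.7% of all promoters. G and C made up 46% of the Rrm1 window, the lowest share, and up to 76% in the others (Dut). The part of base content in the GGGCGG count was not tested. CCAAT, the letters read by NF-Y, occurred in Rrm1, Rrm2 and Paics (3 of 9) and in 33.8% of all. CACGTG, an E-box, occurred in Tyms and Paics (2 of 9) and in 6.02% of all. Any of the 4 E2F spellings TTTCCCGC, TTTGGCGC, TTTCGCGC and TTTGCCGC occurred in Ppat alone (1 of 9) and in 1.86% of all. Letters of a GGGCGG match can also belong to an E2F match on the other strand, and a match is a description of letters, not a site. Only Rrm1, Rrm2 and Tyms among the windows are nearly or wholly free of annotated exons. The Ppat, Paics and Umps windows lie wholly in exons of a neighbouring gene and are not printed. Tyms and Cad are shown as a gene that rose and a gene that was slightly lower, with matches to CACGTG and GGGCGG in capitals. The Cad stretch begins after the exons of Atraid.
Tyms, chr5:30073626-30073875, minus strand: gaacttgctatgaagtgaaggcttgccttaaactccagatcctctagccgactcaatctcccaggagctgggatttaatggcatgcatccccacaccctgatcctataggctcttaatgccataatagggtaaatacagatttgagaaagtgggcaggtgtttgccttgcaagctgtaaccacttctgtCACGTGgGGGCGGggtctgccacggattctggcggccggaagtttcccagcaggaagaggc
Cad, chr5:31054624-31054779, plus strand: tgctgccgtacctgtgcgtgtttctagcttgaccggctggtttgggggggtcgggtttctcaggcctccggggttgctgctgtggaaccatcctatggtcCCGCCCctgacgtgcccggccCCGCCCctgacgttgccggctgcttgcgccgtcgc
In Tyms, CACGTG begins 61 bases and GGGCGG 54 bases before the start. Cad holds GGGCGG on its minus strand at both 56 and 35 bases before the start, with no CACGTG in this window.

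Ratios between genes were set on a length scale, CPM per kilobase of the union of annotated exons. Rrm1 to Rrm2 was 0.306, 0.320 and 0.312 in the VprBP-labelled libraries and 0.354, 0.292 and 0.297 in the control-labelled libraries. The groups overlapped, and no difference in the balance of the reductase subunits was detected beyond the spread (ratio of ratios 0.998, two-sided exact permutation p = 1). Rrm2 to Rrm2b, by contrast, was 11.8, 11.6 and 11.3 in the VprBP-labelled libraries and 1.54, 1.61 and 1.75 in the control-labelled libraries, a 7.08-fold difference without overlap. Paics to Ppat was 8.37, 8.93 and 9.40 in the VprBP-labelled libraries and 3.33, 3.36 and 3.31 in the control-labelled libraries, 2.67-fold apart. Tk1 to Tyms, salvage set against synthesis of thymidylate, was 3.21, 2.34 and 2.87 in the VprBP-labelled libraries and 0.861, 0.784 and 0.995 in the control-labelled libraries, 3.18-fold apart. For each of these last 3 ratios the two-sided exact permutation p was 0.1, the smallest that 3 against 3 allow, and 0.133 when adjusted over the 4 ratios, so this test alone could not pass 0.05.

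**Figure D3:**
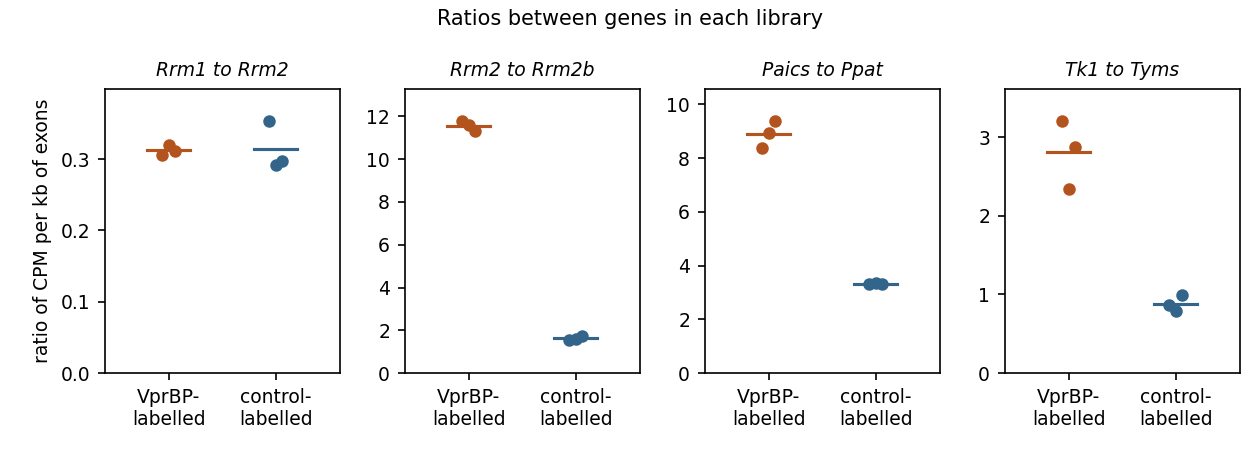
Ratio of CPM per kilobase of exons between 2 genes in each library, VprBP-labelled at left and control-labelled at right, with points for libraries and bars for means. Rrm1 to Rrm2 is near 0.313 and 0.315 in the means of both labels, whereas the other 3 ratios are higher in every VprBP-labelled library.

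The order of the levels per kilobase of exons differed between labels. In the VprBP-labelled libraries Paics led at 44.8 ± 1.80 CPM per kb (SD, n = 3), overlapping with Rrm2 at 43.0 ± 0.549. Rrm1 (13.5 ± 0.473), Dut (9.55 ± 0.724), Cad (7.79 ± 0.194) and Tk1 (6.70 ± 0.717) followed without overlap between neighbours. Ppat (5.04 ± 0.254) and Umps (4.99 ± 0.179) overlapped, and Tyms was lowest at 2.40 ± 0.124. In the control-labelled libraries Paics also led, at 12.2 ± 0.811 CPM per kb, but Umps (9.53 ± 0.364), Cad (8.79 ± 0.226) and Rrm2 (7.60 ± 0.215) came next without overlap. Ppat (3.66 ± 0.251) and Dut (3.48 ± 0.332) overlapped, Rrm1 stood at 2.39 ± 0.207, and Tyms (1.13 ± 0.181) and Tk1 (0.995 ± 0.220) overlapped at the bottom. The annotated exons of Rrm1 add up to 11012 bases and its longest transcript has 5475, so its level depends on the length chosen. By the longest transcript Tk1 stood above Dut in the VprBP-labelled libraries, though overlapping it, and Cad, Rrm2 and Umps overlapped in the control-labelled libraries.

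In the deoxyribonucleotide branch as a whole, 8 of 10 genes were higher, 1 was lower (Rrm2b) and 1 was not called, with a median log2 difference of 1.07. That makes 90.0% called, against 75.0% of all tested genes. Others that rose were Dctd, which deaminates dCMP to dUMP, at 19.6 ± 2.54 CPM in the VprBP-labelled and 9.53 ± 1.31 CPM across the control-labelled libraries (adjusted p = 1.48e-06), and Dtymk, which phosphorylates dTMP (35.0 ± 2.50 and 22.7 ± 2.83 CPM, adjusted p = 1.23e-05). Dctpp1, a dCTP pyrophosphatase, was not called (7.72 ± 0.885 and 6.19 ± 0.377 CPM, adjusted p = 0.0958), but was with library size only (log2 difference 0.43, adjusted p = 0.0269). The summed level of the 10 genes was 445 to 456 CPM across the VprBP-labelled libraries, against 154 to 160.2 CPM across the control-labelled libraries. Rrm1 and Rrm2 make up most of the VprBP-labelled sum, with means of 148 and 119 CPM, against 26.3 and 21.1 CPM in the control-labelled libraries. Outside Rrm1, Rrm2, Tk1, Dut and Tyms, the log2 differences of the list ran from -0.32 (Rrm2b) to 1.04 (Dctd).

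Purine ring synthesis was mixed, with 4 of 8 genes higher, 2 lower and 2 not called (median log2 difference 0.16). The share called, 75.0%, was that of all tested genes. Besides Paics and Ppat, Prps2, which makes the ribose donor, rose 3.79-fold (27.2 ± 1.66 CPM in the VprBP-labelled and 7.18 ± 0.498 CPM across the control-labelled libraries, adjusted p = 2.91e-11). Its paralogue Prps1 was lower (13.2 ± 0.893 and 20.8 ± 1.02 CPM, adjusted p = 2.15e-05), as was Pfas, an amidotransferase of a ring step (64.8 ± 3.34 and 86.3 ± 2.52 CPM, adjusted p = 4.98e-06). Gart, a trifunctional ring enzyme, was slightly higher (55.0 ± 4.52 and 48.0 ± 2.26 CPM, log2 difference 0.19, adjusted p = 0.0234), but was not called without VprBP-labelled replicate 1, control-labelled replicate 2 or control-labelled replicate 3, at 0.14, 0.19 and 0.15. Adsl (40.1 ± 0.899 and 38.1 ± 0.956 CPM) and Atic (58.8 ± 6.27 and 53.9 ± 2.86 CPM), which complete IMP, were not called, but with library size only both were, at log2 differences of 0.19 and 0.24, and Atic also without VprBP-labelled replicate 2, at 0.22. Of 7 genes that turn IMP into AMP and GMP, 2 were higher (Adssl1 and Impdh1), 1 lower (Adss) and 4 not called (Impdh2, Gmps, Adsl and Guk1). That makes 42.9% called, against 75.0% of all tested genes. Adssl1, a form of adenylosuccinate synthase, stood at 48.2 ± 6.76 CPM in the VprBP-labelled and 6.39 ± 1.07 CPM across the control-labelled libraries (adjusted p = 3.71e-13), and the other form, Adss, at 51.4 ± 1.96 and 60.2 ± 4.16 CPM (adjusted p = 0.0057). With library size only Adss was not called (-0.11), whereas Impdh2 (0.22) and Adsl (0.19) were called higher. In that setting 4 of the list were higher. Impdh1, of the branch to GMP, had 54.0 ± 4.92 and 46.4 ± 2.88 CPM (log2 difference 0.22, adjusted p = 0.0156) and was not called without VprBP-labelled replicate 1 or control-labelled replicate 1, at 0.15 and 0.16.

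Of 6 pyrimidine synthesis genes, 4 were lower, 1 higher and 1 not called (83.3% called, against 75.0% of all tested genes). Their median log2 difference was -0.32. Beside Umps and Cad, Ctps, which makes CTP from UTP (31.7 ± 3.0 CPM in the VprBP-labelled and 45.4 ± 4.0 CPM across the control-labelled libraries, adjusted p = 3.52e-05), and the UMP and CMP kinase Cmpk1 (36.6 ± 1.89 and 48.6 ± 1.66 CPM, adjusted p = 4.74e-05) were lower. The paralogue Ctps2 was higher, at 21.5 ± 1.46 and 10.9 ± 0.849 CPM (adjusted p = 3.48e-07). The summed level of the 6 was 179 to 186 CPM across the VprBP-labelled libraries, against 219 to 229 CPM across the control-labelled libraries.

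Salvage genes went both ways, with 5 of 15 higher, 7 lower and 3 not called (80.0% called, against 75.0% of all tested genes). Their median log2 difference was -0.05. The split was not stable: 5 were higher and 4 lower with library size only or without VprBP-labelled replicate 2, 4 higher and 5 lower without VprBP-labelled replicate 3, and 4 each way, 8 calls in all, without control-labelled replicate 1. Higher, after Tk1, were adenosine kinase Adk (14.5 ± 0.895 CPM in the VprBP-labelled and 4.17 ± 0.951 CPM across the control-labelled libraries, adjusted p = 2.34e-08), uridine-cytidine kinase Uck2 (51.1 ± 3.85 and 35.3 ± 1.37 CPM, adjusted p = 4.27e-06), deoxycytidine kinase Dck (17.6 ± 0.721 and 9.77 ± 1.09 CPM, adjusted p = 6.5e-06) and cytidine deaminase Cda (2.54 ± 0.306 and 1.21 ± 0.629 CPM, adjusted p = 0.0193). The Cda call was lost without VprBP-labelled replicate 3, control-labelled replicate 1 or control-labelled replicate 3, at log2 differences of 1.0, 0.94 and 0.80. The lowest p-values on the lower side belonged to Aprt, which salvages adenine (24.7 ± 2.73 and 40.9 ± 0.349 CPM, adjusted p = 5.24e-07), the paralogue Uck1 (40.7 ± 2.03 and 61.0 ± 4.99 CPM, adjusted p = 1.22e-06) and uridine phosphorylase Upp1 (4.89 ± 0.492 and 11.7 ± 1.32 CPM, adjusted p = 1.43e-06). Uckl1, Ada and Dguok were not called.

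Folate one-carbon genes supply Tyms and the ring steps of purine synthesis. Of 12, 10 have a row and passed the filter. Among these 10, 6 were higher, 3 lower and 1 (Shmt2) not called (90.0% called, against 75.0% of all tested genes). Their median log2 difference was 0.47. Mthfd1l, which releases formate from the mitochondrion, stood at 109 ± 3.11 CPM in the VprBP-labelled and 25.6 ± 2.36 CPM across the control-labelled libraries (adjusted p = 1.11e-14), Aldh1l1, which oxidises formyl-folate, at 23.3 ± 0.794 and 2.75 ± 0.641 CPM (adjusted p = 3.37e-12), and the cytosolic Mthfd1 at 49.5 ± 1.84 and 27.2 ± 1.45 CPM (adjusted p = 6.98e-09). Among the lower were Fpgs, which retains folates in the cell (12.4 ± 0.158 and 23.6 ± 1.47 CPM, adjusted p = 2.18e-07) and the mitochondrial Mthfd2 (109 ± 4.72 and 134 ± 6.65 CPM, adjusted p = 0.000107). Shmt2, the mitochondrial serine hydroxymethyltransferase, was not called, at 229, 221 and 209 CPM across the VprBP-labelled libraries, against 207, 218 and 223 CPM across the control-labelled libraries, but was with library size only (log2 difference 0.14, adjusted p = 0.0148). Over all 8 lists of nucleotide metabolism, 82 genes were tested and 74.4% were called, 35 higher and 26 lower, a share close to the 75.0% of all tested genes. These include the 9 genes. Without them 73 were tested and 71.2% were called, 28 higher and 24 lower (median log2 difference 0.03).

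**Figure D4:**
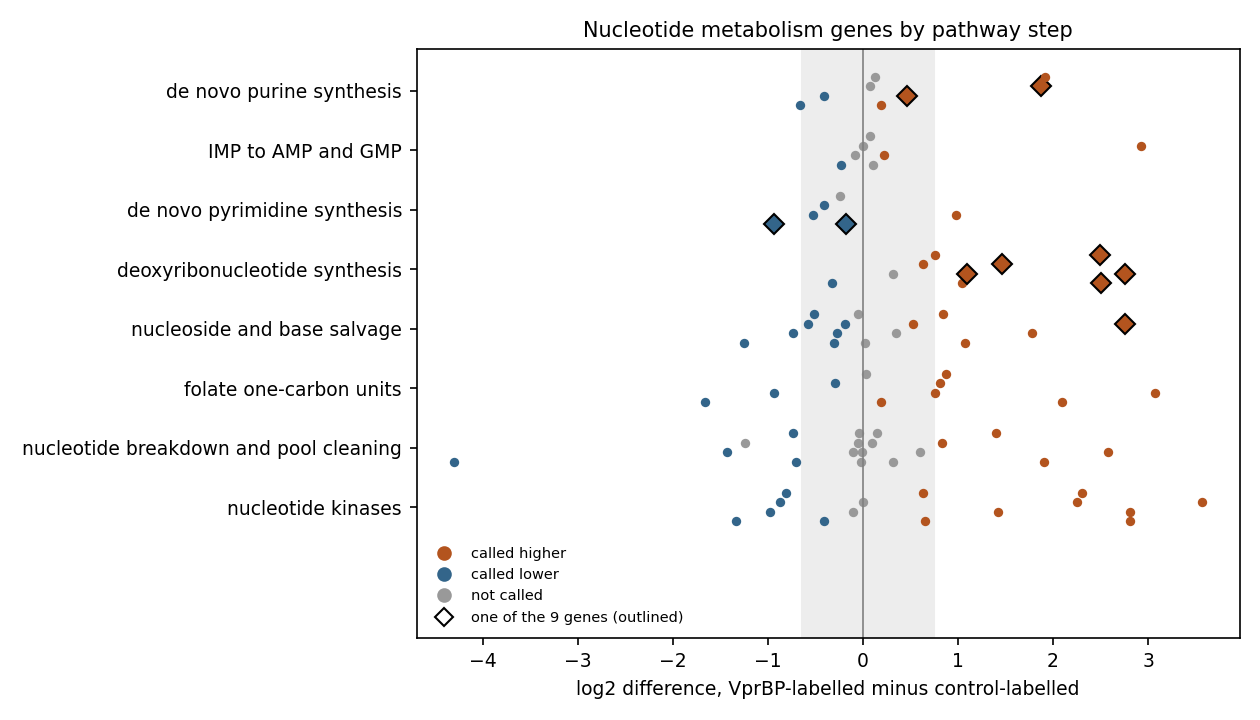
Log2 difference (VprBP-labelled minus control-labelled) of each tested gene, grouped down the page by list, with calls at adjusted p below 0.05 in colour, the 9 genes as outlined diamonds and the middle 50% of all tested genes as a grey band. The deoxyribonucleotide row lies mostly to the right of the band (median 1.07), and the pyrimidine row mostly to the left of 0 (median -0.32).

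The closest profile to each of the 9 genes was sought among 12573 tested protein-coding genes outside the lists, by the root mean square difference of centred log2 CPM over the 6 libraries. The closest were Epb41l2 for Rrm2 (0.027), Rnf144a for Rrm1 (0.047), Kcnh2 for Tk1 (0.076), Lrp4 for Dut (0.044), Csad for Tyms (0.051), Exoc4 for Paics (0.039), Camk2d for Ppat (0.019), Cers2 for Umps (0.026) and Ambra1 for Cad (0.017). Such likeness was common: between 58 genes for Tk1 and 3300 genes for Cad lay within 0.2 of a profile.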

How the data were processed

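The deposited table holds estimated counts per gene that the authors left unscaled. The submitters' processing notes name Partek and the build mm10. Aligner, counting tool, strand setting and annotation release were not given in the sources used here. Of 18908 gene IDs, 18501 (97.8%) matched GENCODE M21 on GRCm38, the source of coordinates, exon lengths and overlaps. No gene in the table had under 10 counts in all.

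After rounding to whole numbers, edgeR 4.0.16 in R 4.3.3 tested 14641 genes (quasi-likelihood F test, TMM scaling, filterByExpr, group as the only term, Benjamini-Hochberg adjustment), with a script tested on simulated data. The simulated data held few changed genes, as many higher as lower, so they did not test the scaling where most genes differ. Differences are VprBP-labelled minus control-labelled, with 95% intervals. The 9 genes, the lists and the tests were chosen with earlier results of these data known. Named beside the 9 were set partners, up to 3 called genes per list and direction by lowest p, genes that spell out counts of 5 or fewer, and the closest profiles; some list genes are not reported here. Alternatives were other scalings and filters, mitochondrial genes left out, no rounding, DESeq2 1.42.0, limma 3.58.1 voom, a replicate block and each library left out. Exact permutation tests used scipy 1.17.1.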

Additional observations from a re-analysis of the deposited data

How the results depend on the processing

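The 9 genes kept their direction under all 16 alternatives, and 8 kept their call under all of them. The exception was Cad, at -0.06 and not called with library size only, where Dcaf1 stood at -0.12 and was not called either (adjusted p = 0.137). Over the alternatives the log2 differences ranged from 2.43 to 2.61 for Rrm1, 2.48 to 2.62 for Rrm2, 2.60 to 2.93 for Tk1, 1.38 to 1.57 for Dut, 0.95 to 1.21 for Tyms, 1.83 to 1.99 for Paics, 0.41 to 0.57 for Ppat, -0.96 to -0.82 for Umps and -0.20 to -0.06 for Cad. Leaving out 1 library gave 10637 to 10774 calls over all genes and 9 of the 9. The breakdown list had 5 calls, not 8, when 50 counts were required in at least 3 libraries, since fewer of its genes were then tested. Differences near 0 that changed sign were those of Guk1 (0.00 with DESeq2 size factors and the DESeq2 test, 0.01 with limma voom or no filter, 0.11 with library size only, -0.09 to 0.04 with 1 library left out), Uckl1 (-0.01 with upper quartile scaling, -0.00 with at least 50 counts, -0.04 to 0.08 with 1 library left out), Dguok (0.07 with library size only, -0.09 to 0.02 with 1 library left out), Gmps (0.03 with library size only), and Shmt2 (-0.01 to 0.07 with 1 library left out), none of them called under these settings. Length by the longest transcript left the ratio differences as they were and set the ratio levels in the VprBP-labelled and control-labelled libraries at 0.498 and 0.501 (Rrm1 to Rrm2), 7.28 and 1.03 (Rrm2 to Rrm2b), 10.6 and 3.96 (Paics to Ppat) and 3.74 and 1.17 (Tk1 to Tyms). The replicate numbers did not pair the libraries, the correlations of same-numbered deviations being -0.032, 0.007 and -0.042. With the replicate block 10649 genes were called, and 9 of the 9.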

Other observations

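Genes of nucleotide breakdown and pool cleaning, which hold none of the 9, counted 4 higher, 4 lower and 10 not called of 18 tested (44.4% called, against 75.0% of all tested genes; median log2 difference -0.01). The even split did not hold with library size only (7 higher, 3 lower) or without control-labelled replicate 2 (6 higher, 4 lower). Xdh, which oxidises purine bases to uric acid, stood at 29.1 ± 1.30 CPM in the VprBP-labelled and 7.79 ± 0.335 CPM across the control-labelled libraries (SD, n = 3 each, edgeR adjusted p = 1.35e-11). Samhd1, which degrades deoxyribonucleotides, was higher as well, at 61.5, 61.5 and 56.7 CPM across the VprBP-labelled libraries, against 32.3, 35.2 and 33.5 CPM across the control-labelled libraries (adjusted p = 4.81e-09). The pyrimidine-degrading Dpyd was also higher (9.56 ± 0.498 and 1.61 ± 0.390 CPM, adjusted p = 5.02e-09). Lower were Itpa, which clears inosine triphosphate (15.0 ± 1.56 and 40.2 ± 3.61 CPM, adjusted p = 3.53e-10), the mitochondrial nucleotidase Nt5m (8.18 ± 0.353 and 13.3 ± 0.981 CPM, adjusted p = 0.000125), Tymp (1.90 ± 0.369 and 3.18 ± 0.502 CPM, adjusted p = 0.0324) and Ampd1. Tymp lost its call without VprBP-labelled replicate 1 or 2 or control-labelled replicate 3, at -0.61, -0.71 and -0.62, and with library size only, at -0.62. Ampd1 had 3 counts over the VprBP-labelled libraries together, all of them in replicate 3, and 63 over the control-labelled ones. The ratio of scaled counts was 0.0455 (95% counting interval 0.00915 to 0.139, counting error only).

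Of 15 nucleotide kinases, 8 were higher, 5 lower and 2 not called (86.7% called, against 75.0% of all tested genes). Their median log2 difference was 0.63. Cmpk2, a mitochondrial kinase also induced by interferon, stood at 25.3 ± 3.61 CPM in the VprBP-labelled and 2.10 ± 0.267 CPM across the control-labelled libraries (adjusted p = 7.44e-13), and the adenylate kinases Ak4 and Ak1 at 36.0 ± 2.21 and 7.65 ± 1.03 CPM, and at 24.0 ± 0.392 and 3.43 ± 0.801 CPM. The abundant diphosphate kinases Nme2 (81.8 ± 3.45 and 206 ± 15.9 CPM, adjusted p = 5.68e-13) and Nme1 (39.0 ± 1.72 and 76.6 ± 0.969 CPM, adjusted p = 1.13e-10) were lower, so that the summed level of the list was 452 to 476 CPM across the VprBP-labelled libraries, against 542 to 586 CPM across the control-labelled libraries while more of its genes were higher. Ak6, the third on that side by p, had 31.6 ± 3.48 and 55.4 ± 2.22 CPM.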
